A study of Homo sapiens with 2 samples.

Results

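Complement is a set of blood and tissue proteins that tag cells and microbes and can punch holes in their membranes. It starts on bound antibody through C1, on sugars through the lectins or by slow turnover of C3 itself, and all routes meet in enzymes called convertases, which cleave C3 and then C5. Human cells limit it on their own surface with the membrane regulators CD46, CD55 and CD59, and body fluids hold soluble regulators such as factor I, C1 inhibitor and clusterin. The liver makes most circulating components, and epithelial cells can make several of them locally.

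The 9 genes described here are complement components and regulators, chosen by gene symbol from a deposited table of 21382 genes: the components C1R, C1S, C3 and CFB, the soluble regulators CFI and CLU, and the membrane regulators CD46, CD55 and CD59. All 9 were found. RNA-Seq was performed on total RNA of RC77 T/E and MDA PCa 2b, 2 established human prostate cancer cell lines, both untreated, with 1 library per cell line. MDA PCa 2b was grown in a modified Ham's F-12 medium with 20% fetal bovine serum, epidermal growth factor at 10 ng/ml, hydrocortisone at 100 pg/ml, insulin, cholera toxin, selenite and phosphoethanolamine, and RC77 T/E in keratinocyte serum-free medium with bovine pituitary extract and the same growth factor. RNA integrity scores were above 9.0 in both. Each line stands for 1 culture, and cell line, medium and library cannot be told apart.

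Where a pair of levels is given without naming the lines, MDA PCa 2b comes first. Levels are in TPM, a unit of transcript abundance that divides reads by gene length and by the library total, so that genes can be compared within a library. The depth behind them is unknown because TPM keeps no counts, no value has an error, and no difference between the lines has a replicate check or a p-value. Many values of 1 TPM or more were deposited without their decimal mark. For C1R, C1S, C3 and CFI the mark was fixed by the deposited mean and standard error. For CFB, CLU, CD46, CD55 and CD59 it is open by a factor of 10, or of up to 100 for CD59, and all values that fit are given. The ratio between the lines was the same at every fitting value for these 5 genes.

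The labelled tissue was checked against its markers. MDA PCa 2b had the luminal markers KLK3 at 5323 TPM and TMPRSS2 at 482.9 TPM. In RC77 T/E, KLK3 and KLK2 are listed at 0 and TMPRSS2 was at 0.108 TPM, so these defining luminal markers were at or near 0. The keratins KRT8 and KRT18 were present in both lines. RC77 T/E had the higher level of all 5 markers of basal prostate epithelium by the 2-fold rule explained below, among them KRT5 at 0.00435 and 4027 TPM and KRT14 at 37.4 and 3255 TPM.

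A level of at least 1 TPM was reached by 8 of the 9 genes in RC77 T/E and by 5 in MDA PCa 2b (CFB, CD46, CD55, CD59 and CLU), beside 52.8% and 49.6% of all genes. C3, C1R and C1S, 3 of the 9, reached it in RC77 T/E alone, as did 7.10% of all genes, and 0 of the 9 reached it in MDA PCa 2b alone, as did 3.93%. CFI reached it in neither. C1R and C3 were the members with the largest ratios toward RC77 T/E, and CLU was the member that was higher in MDA PCa 2b. A gene was called higher in a line when the ratio, with 1 TPM added to both values, was at least 2-fold and the mean at least 1 TPM. By this rule 6 of the 8 members with such a mean were higher in RC77 T/E (C3, CFB, C1R, C1S, CD55 and CD59), 1 was higher in MDA PCa 2b (CLU) and 1 lay between (CD46). C3, C1R and C1S had such a mean through RC77 T/E alone, so they could be called only toward that line. Of the 5 at 1 TPM or more in both lines, CFB, CD55 and CD59 were higher in RC77 T/E and CLU in MDA PCa 2b, and CD46 lay between. Among all 11624 expressed genes 19.4% were called toward RC77 T/E, and 20.0% went toward MDA PCa 2b. The log2 ratio had a median of 1.74 over the 8 members, C3, C1R and C1S included, and -0.15 over all expressed genes. Each ratio below can thus be read against a general shift of -0.15.

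**Figure D1:**
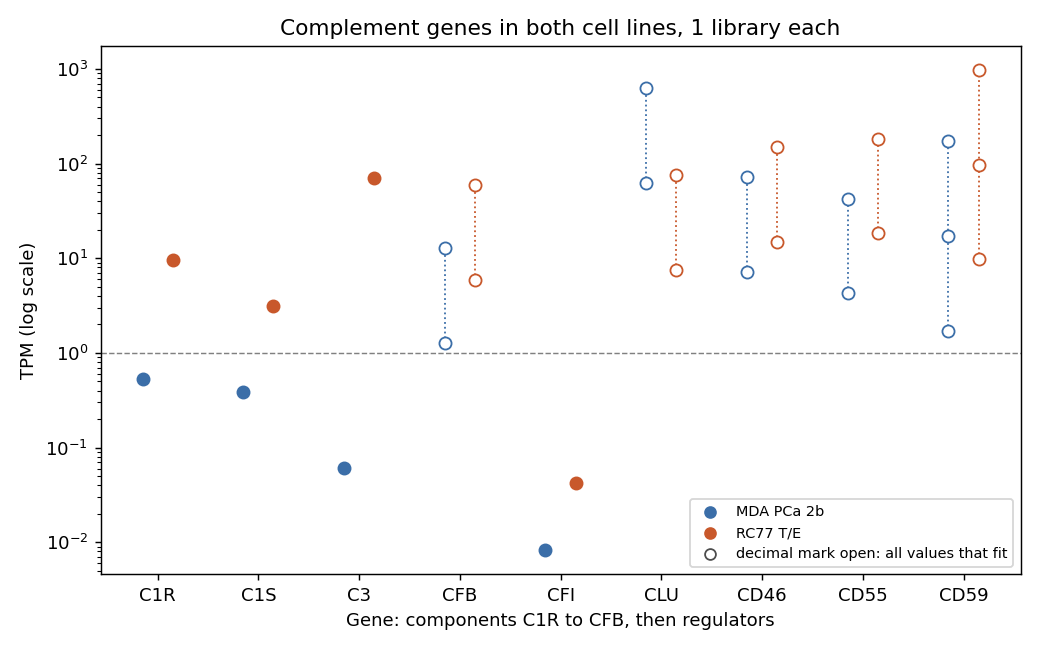
TPM of the 9 genes on a log axis, in MDA PCa 2b (blue) and RC77 T/E (orange), with 1 library per line and no error bars. Filled points have a fixed decimal mark, open points joined by dots are all values that fit, and the dashed line is 1 TPM; C3 goes from 0.0606 to 71.1 TPM, while CLU is the one gene whose blue points lie above its orange points.

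Windows of sequence from 3 genes are shown to set a component beside 2 membrane regulators, because CFB and both regulators were above 1 TPM in each line while differing in ratio. Each is the 250 bases before a transcription start in RefSeq on GRCh38.p14, written 5′ to 3′ on the gene's strand. Capitals mark matches on either strand to the TATA box (TATAAA), the GC box (GGGCGG), the CCAAT box (CCAAT), the STAT motif (TTCNNNGAA) and an interferon response motif.
CFB, chr6:31945845-31946094, plus strand: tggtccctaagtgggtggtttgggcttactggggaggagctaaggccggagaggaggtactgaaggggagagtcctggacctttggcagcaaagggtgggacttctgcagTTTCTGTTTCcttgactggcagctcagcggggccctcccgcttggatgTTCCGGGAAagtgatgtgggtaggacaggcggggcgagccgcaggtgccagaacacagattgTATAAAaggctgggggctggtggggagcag
CD46, chr1:207751788-207752037, plus strand: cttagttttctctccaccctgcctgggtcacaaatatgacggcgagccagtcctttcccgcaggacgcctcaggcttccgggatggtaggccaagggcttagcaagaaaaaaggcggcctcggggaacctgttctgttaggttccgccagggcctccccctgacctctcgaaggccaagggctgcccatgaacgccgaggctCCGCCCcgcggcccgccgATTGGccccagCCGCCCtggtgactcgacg
CD59, chr11:33736480-33736729, minus strand: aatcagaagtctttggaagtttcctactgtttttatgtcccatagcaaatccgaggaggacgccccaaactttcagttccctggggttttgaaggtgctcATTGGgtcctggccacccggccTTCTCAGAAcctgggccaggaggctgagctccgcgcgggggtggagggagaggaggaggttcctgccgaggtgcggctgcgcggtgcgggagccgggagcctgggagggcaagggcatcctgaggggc

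The CFB window held a TATA box from 30 to 25 bases before the start, a STAT match from 92 to 84 bases and an interferon match from 140 to 131 bases before it. The CD46 window held a CCAAT box and 2 GC boxes, and the CD59 window held a CCAAT box and a STAT match. The table has 2 windows for CD46 and 4 for CD59, of which the one nearest the deposited start of the gene is shown, and the matches differ between them. The second CD46 window, which overlaps the one shown, held 3 GC boxes and a CCAAT box. Of the other CD59 windows, window 2 held 2 GC boxes, a CCAAT box and a STAT match, window 3 a CCAAT box and 2 C/EBP matches, and window 4 held 2 AP-1 matches. The motifs searched on both strands also included AP-1 (TGANTCA), C/EBP (TTNNGCAA) and NF-kappaB, found in 6.57%, 9.05% and 1.73% of all windows, and the last had no match in any window of the 6 genes. Of 35116 windows of this length in the RefSeq table, 10.7% hold the TATA box, 42.6% the GC box, 32.0% the CCAAT box, 6.57% the STAT motif and 3.02% the interferon motif. A match describes letters only. Windows for 6 of the 9 genes were in the table, and those for C3, C1S and CLU were not used here.

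The components C1R and C1S are the paired proteases that C1q carries, and C1r activates C1s, which then cleaves C4 and C2. C1R (ENSG00000159403, GRCh38 chromosome 12, from 7080214 to 7092540) was at 9.57 TPM in RC77 T/E against 0.526 TPM in MDA PCa 2b. C1S (ENSG00000182326, chromosome 12, 6988259 to 7071032) was at 0.387 and 3.12 TPM. Both genes were thus under 1 TPM in MDA PCa 2b and above it in RC77 T/E. The ratio was 18.2 for C1R and 8.06 for C1S, with log2 ratios of 2.79 and 1.57 after adding 1 TPM. The genes lie 9182 bases apart. C1RL, which encodes a C1r-like protease and overlaps C1R by 3021 bases on the same strand, was at 13.3 and 8.33 TPM. Whether reads of C1RL entered the value of C1R was not tested. C1S as annotated overlaps EMG1 on its own strand and LPCAT3 on the other, and whether reads of these genes entered its value was not tested.

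C1q itself, the part of C1 that binds antibody, was near 0. Its chains C1QA, C1QB and C1QC are listed at 0 in RC77 T/E, and MDA PCa 2b had 0.00919, 0.0313 and 0.0454 TPM. The targets of C1s were also low in RC77 T/E. C2 is listed at 0 in RC77 T/E, against 0.865 TPM in MDA PCa 2b, and C4A, summed over its loci, was at 0.0566 and 0.175 TPM. C4A has a near-identical copy, C4B, which is not analysed here, and how reads were divided between them is not stated.

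C3 (ENSG00000125730, chromosome 19, 6677704 to 6730562), the protein on which all routes meet, was at 71.1 TPM in RC77 T/E against 0.0606 TPM in MDA PCa 2b. Its log2 ratio with 1 TPM added was 6.09. With other genes at their lowest fitting marks, 109 of the 11624 expressed genes, or 0.938%, had a larger one, and the number at higher marks was not counted. The plain ratio was 1173, which rests on a low value of unknown depth in MDA PCa 2b. Between 561 and 5666 genes were higher than C3 in RC77 T/E, a range set by the open decimal marks of other genes. C3 overlaps GPR108 by 649 bases on the same strand. GPR108 was at 20.7 or 206.9 TPM in RC77 T/E against 30.8 or 308.3 TPM in MDA PCa 2b. Whether reads of GPR108 entered the value of C3 was not tested.

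CFB (ENSG00000243649, chromosome 6, 31945650 to 31952086) encodes factor B, the protease of the alternative-pathway convertase that C3b forms. It was at 5.91 or 59.1 TPM in RC77 T/E against 1.27 or 12.7 TPM in MDA PCa 2b, with a ratio of 4.64 at either mark. The log2 ratio with 1 TPM added was 1.60 or 2.13. CFB is listed at 7 loci, of which 6 are at 0 in both lines. It lies next to C2, with 23 shared bases, and inside the read-through gene AL645922.1 on the same strand. C2 did not share its direction, and whether reads of these genes entered the value of CFB was not tested. CFD, which encodes factor D, the protease that cleaves bound factor B, had the opposite order, at 1.75 or 17.5 TPM in RC77 T/E against 13.4 or 134.1 TPM in MDA PCa 2b, 7.66 times as high in MDA PCa 2b. CFP, which encodes properdin, the stabiliser of this convertase, was at 0.101 and 0.0242 TPM.

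**Figure D2:**
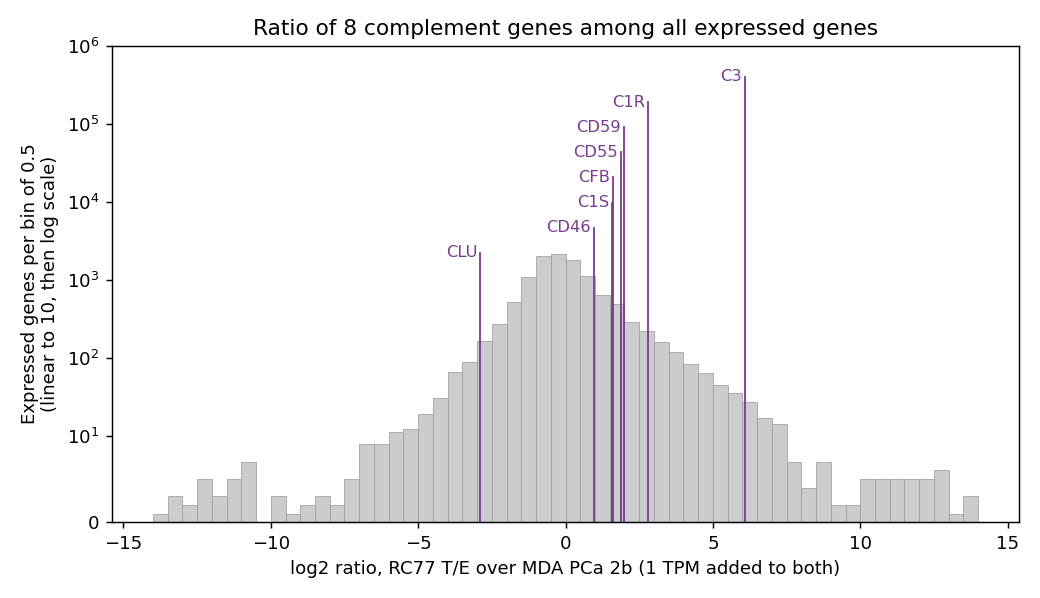
Histogram of the log2 ratio of RC77 T/E over MDA PCa 2b, with 1 TPM added, for 11624 expressed genes in bins of 0.5, with the count axis linear to 10 and then logarithmic. Lines mark 8 members at the lowest fitting decimal mark, from CLU at -2.90 to C3 at 6.09, and their heights serve only to separate the labels.

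Of the soluble regulators, CFI (ENSG00000205403, chromosome 4, 109731008 to 109802150) encodes factor I, the protease that cuts C3b and C4b when a cofactor is present. It was at 0.0420 TPM in RC77 T/E against 0.00825 TPM in MDA PCa 2b, under 1 TPM in both, and was not counted as higher in either. CFI overlaps AC126283.2 by 61306 bases on the same strand, and whether reads of that gene entered its value was not tested. CLU (ENSG00000120885, chromosome 8, 27596917 to 27614700) encodes clusterin, a secreted chaperone that binds the late complement complex. It was at 7.55 or 75.5 TPM in RC77 T/E against 62.6 or 626.4 TPM in MDA PCa 2b, 8.30 times as high in MDA PCa 2b at either mark. The log2 ratio was -2.90 or -3.04. At the lowest mark 2.71% of expressed genes had a smaller ratio.

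An inhibitor that works beside these proteins was higher in RC77 T/E. SERPING1, which encodes C1 inhibitor, the serpin that blocks C1r and C1s, was at 0.0119 and 2.13 TPM, in the same direction as C1R and C1S. C4BPA and C4BPB, the chains of C4b-binding protein, are listed at 0 in both, and VTN, vitronectin, is listed at 0 in RC77 T/E against 0.0255 TPM in MDA PCa 2b.

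The 3 membrane regulators reached 1 TPM in both lines, and the plain ratio of each lay toward RC77 T/E. CD46 (ENSG00000117335, chromosome 1, 207752037 to 207795513) spans the membrane and serves factor I as a cofactor on the cell surface. It was at 15.0 or 149.6 TPM in RC77 T/E against 7.21 or 72.1 TPM in MDA PCa 2b, a ratio of 2.07. Its log2 ratio was 0.96 at the lower mark and 1.04 at the higher one, so that the call of at least 2-fold depends on the mark.

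CD55 (ENSG00000196352, chromosome 1, 207321519 to 207386804), also named decay-accelerating factor, takes convertases apart. It was at 18.4 or 183.7 TPM in RC77 T/E against 4.27 or 42.7 TPM in MDA PCa 2b, with log2 ratios of 1.88 or 2.08. CD59 (ENSG00000085063, chromosome 11, 33703010 to 33736479) keeps C9 from joining the membrane attack complex. It was at 9.75, 97.5 or 974.8 TPM in RC77 T/E against 1.73, 17.3 or 172.5 TPM in MDA PCa 2b, a ratio of 5.65 at each mark. CD59 overlaps AL049629.2 by 19458 bases on the same strand, and whether reads of that gene entered its value was not tested. The plain ratios thus ran from CD46 at 2.07 over CD55 at 4.30 to CD59 at 5.65, with no error to say whether neighbours in this order differ. The order of their levels within a line cannot be read, because the marks are open separately for each gene.

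CD55 and CD46 share a cluster of regulator genes on chromosome 1, with 365233 bases between them. Between them, CR1 and CR1L are listed at 0 in both lines and CR2 at 0 and 0.00745 TPM. THBD, thrombomodulin, a membrane protein of the clotting system that also helps factor I inactivate C3b, was at 138.1 TPM in RC77 T/E against 0.133 TPM in MDA PCa 2b.

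CD55 and CD59 are held in the membrane by a GPI anchor, a lipid built in the endoplasmic reticulum, whereas CD46 is not. Of 27 genes for making, attaching or remodelling the anchor, 26 were listed, and all 26 were at 1 TPM or more in both lines. By the 2-fold rule RC77 T/E had the higher level of 3 and MDA PCa 2b of 5, beside 19.4% and 20.0% of all expressed genes, so the shares were near or under that background. Centred on the median of all expressed genes, the counts were 5 and 4, beside 2542 and 1880 of all 11624 expressed genes. Neither line thus had the higher level of more of these genes under both scalings. At the highest decimal marks the counts were 4 and 7, and with 0.1 TPM added in place of 1 TPM they were also 4 and 7. The shares of all genes under these last settings are not given here. Over the 26 the log2 ratio had a median of 0.02. PIGA, a subunit of the enzyme of the first step, had a ratio of 2.31 toward RC77 T/E, and PIGH, another subunit of it, of 4.80 toward MDA PCa 2b. DPM1, which makes the mannose donor, was at 35.0 and 103.8 TPM, and its partner DPM3 at 446.2 and 93.9 TPM. PGAP1, which remodels the finished anchor, had a ratio of 5.16 toward RC77 T/E. GPAA1 of the attaching enzyme, DPM2 and PGAP3 were 2.46, 2.80 and 3.10 times as high in MDA PCa 2b.

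Across a wider list of 59 complement genes, 58 were listed, 17 reached 1 TPM in RC77 T/E, against 9 in MDA PCa 2b. Among all genes 52.8% and 49.6% did so, a larger share than on the list in either line. The same 9 were among the 17, and 16 of the 58 genes are listed at 0 in both, beside 21.3% of all genes. Of the 16 with a mean of at least 1 TPM, RC77 T/E had the higher level of 10 and MDA PCa 2b of 3 by the 2-fold rule, against 19.4% and 20.0% of all expressed genes, and their median log2 ratio was 1.60. All 9 members are on this list. C3, C1R, C1S and some others of the 10, such as THBD, had a mean of at least 1 TPM through RC77 T/E alone, so they could be called only toward that line. The membrane attack complex genes C6, C7, C8A, C8B, C8G and C9 were all under 1 TPM in both lines. C5, which starts that complex, was at 0.308 and 0.688 TPM. In the lectin pathway only MASP2, a protease, reached 1 TPM of the 8 genes listed, at 1.06 and 1.37 TPM.

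**Figure D3:**
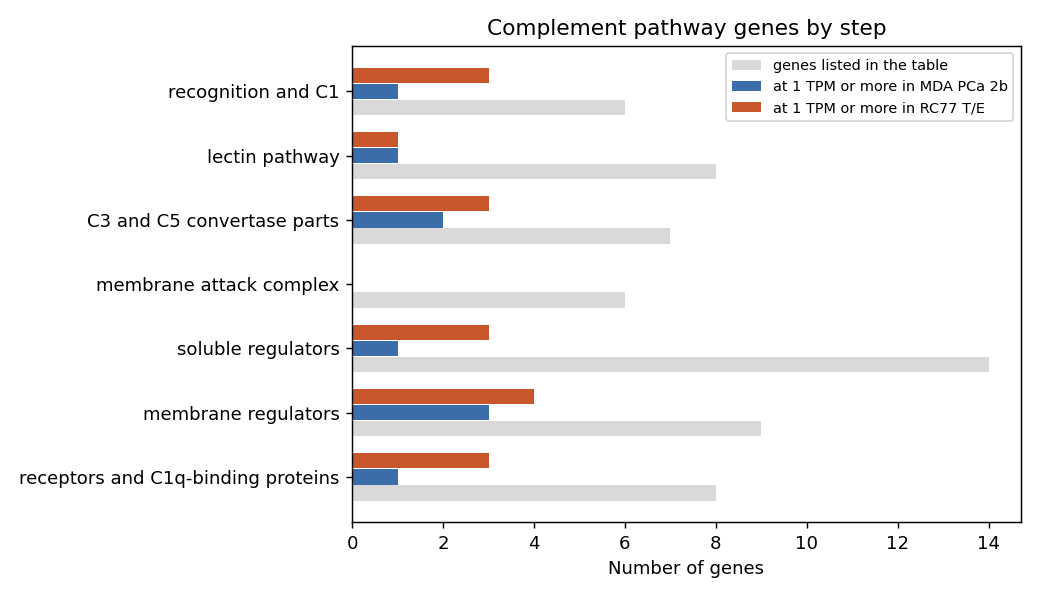
Number of complement pathway genes per step, as listed in the table (grey) and as reaching 1 TPM in RC77 T/E (orange) or MDA PCa 2b (blue). The membrane attack complex has 6 genes and none at 1 TPM, and the soluble regulators have 14 genes with 1 and 3 at that level.

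Receptors for complement fragments were low in MDA PCa 2b. C5AR1, a receptor for C5a, was at 0.0792 TPM there and 1.19 TPM in RC77 T/E, and ITGB2, the beta chain of the integrins that bind iC3b, was at 0.101 and 2.32 TPM. The alpha chains that pair with it for this, ITGAM and ITGAX, were at 0.0796 and 0.00461 TPM in MDA PCa 2b and 0.0241 and 0.0236 TPM in RC77 T/E. C3AR1 was at 0.0550 and 0.112 TPM. C1QBP, a mainly mitochondrial protein that can bind C1q, had a ratio of 3.85 toward MDA PCa 2b, at 34.1 or 340.6 against 8.84 or 88.4 TPM.

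**Figure D4:**
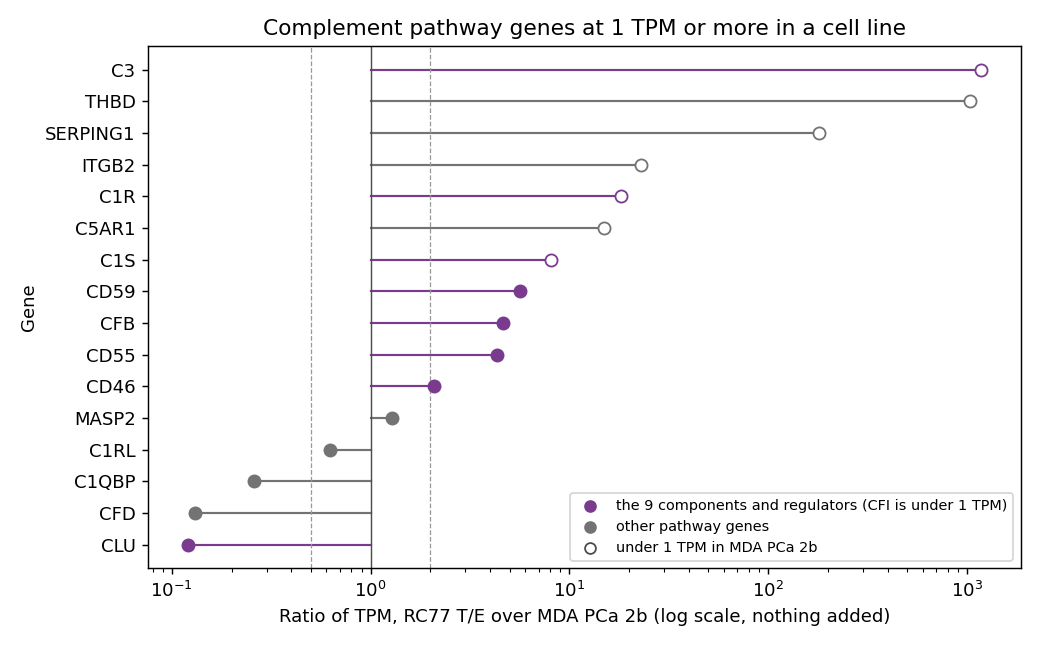
Ratio of TPM in RC77 T/E over MDA PCa 2b, on a log axis with nothing added, for 16 complement pathway genes at 1 TPM or more in a cell line. Purple marks members, grey other genes, open points genes under 1 TPM in MDA PCa 2b, and dashed lines 2-fold; of those drawn, C3 and THBD have the largest ratios and CLU, CFD and C1QBP the smallest.

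Complement genes are also expressed by liver cells, macrophages and fibroblasts, so markers of these and other cell types were read in the same libraries. Of 5 hepatocyte markers, 1 was at 1 TPM or more, SERPINA1 at 0.40 and 14.2 TPM, while ALB was at 0.0869 and 0.0881 TPM and TTR is listed at 0 in both. Of 5 macrophage markers, CD68 was at 0.663 and 37.9 TPM and CD14 at 0.0730 and 4.92 TPM, whereas CSF1R was at 0.0314 and 0.353 TPM, CD163 at 0.00639 and 0 TPM and MRC1 at 0 and 0.00261 TPM. Of 5 fibroblast markers COL1A1 alone reached 1 TPM, at 0.554 and 8.24 TPM, while DCN was at 0.491 and 0.0531 TPM. The summed level was 0.636 and 14.3 TPM for the hepatocyte list, 0.774 and 43.2 TPM for the macrophage list and 2.24 and 9.22 TPM for the fibroblast list. The part of such cells in the values of C3, CFB, C1R and C1S was not tested. Fewer cells that express a gene and less of its RNA per cell cannot be told apart in such bulk libraries. None of the 4 leukocyte, 4 platelet and 3 endothelial markers reached 1 TPM, and the defining leukocyte gene PTPRC was at 0.0113 and 0 TPM.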

How the data were processed

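The authors isolated total RNA, made paired-end directional libraries and deposited TPM per locus with the mean and standard error of both lines. The submitters' processing notes name GRCh38, CASAVA, FastQC 0.11.9, Trimmomatic 0.38 and Salmon 1.2.0, with no role or order, and the row identifiers have the form of Cufflinks. The annotation and any use of the strand in counting are not given in the sources used here.

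The deposited TPM had lost the decimal mark in 10361 values of MDA PCa 2b and 11082 of RC77 T/E. The design had assumed plain TPM. Marks with 1 to 3 digits ahead of them and no fewer than 3 behind were tried, and those giving the deposited mean and standard error were kept. Of 22704 loci, 16212 had 1 position and 6492 had 2 or 3. The lowest was used for counts, medians and ratios. Loci of one symbol were summed, and an expressed gene had a mean of at least 1 TPM. Log2 ratios had 1 TPM added, which understates the change of low genes.

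Positions are those deposited. In GENCODE release 29, from which overlaps were taken, both ends of 9 of 9 members lay within 20 kb, and 2 had the same start and end. Overlap lengths can therefore differ from those of the deposited positions. With 1 library per line no test was made. The members and lists were chosen with earlier results of these data known. Named genes are the members, genes of the complement list at 1 TPM or in a member's complex or step, GPI anchor genes past 2-fold with PIGA, similar short lists, and cell type markers. AL645922.1, AL049629.2, AC126283.2, EMG1, LPCAT3, GPR108 and CR1L were named for their position after values were seen, as were the windows shown. Matplotlib 3.10.9, numpy 2.4.6 and Python 3.11.15 were used. Columns of the authors' mean and standard error served only to place the mark. C4B and PIGY were not analysed here. Some list genes go unnamed in the text, and they were kept in counts and medians. The alternatives concerned the threshold, pseudocount, centring, scaling, decimal mark, repeated loci and fold.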

Additional observations from a re-analysis of the deposited data

How the results depend on the processing

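Of 90 values recomputed under alternatives, 80 stayed within 1.5 times and in the same direction, 10 moved by more and 0 turned direction. Some of the 80 could not change and say nothing about stability. Taking the largest locus leaves a member with 1 locus above 0 as it was. The highest decimal mark likewise leaves C3, CFI, C1R and C1S as they were, because their mark is fixed. A pseudocount of 0.1 TPM moved the log2 ratio of C1S from 1.57 to 2.72 and of CFI from 0.05 to 0.39, and 0.01 TPM gave 2.98 for C1S, 1.51 for CFI and 9.98 for C3, since both genes and C3 are under 1 TPM in MDA PCa 2b. Centring on the median of expressed genes gave 0.20 for CFI and 5 GPI anchor genes higher in RC77 T/E in place of 3 and 4 higher in MDA PCa 2b in place of 5, and scaling to the upper quartile gave 5 and 5. Shares of all genes under upper quartile scaling are not given here. At the lowest decimal marks, with 1 TPM added and a fold threshold of 4, 2 members were higher in RC77 T/E in place of 6. At their higher marks CFB, CD55 and CD59 had log2 ratios of 2.13, 2.08 and 2.43 or 2.49, which also pass 4-fold. At the lowest decimal marks and a level of 5 TPM, 2 members counted as expressed in MDA PCa 2b in place of 5. At the highest marks and the same level the count was 5, so the drop depends on the mark. Shares of all genes past 4-fold or at 5 TPM are not given here. At the highest marks CD46 passed 2-fold too, which gave 7 members higher in RC77 T/E. The share of all genes past 2-fold at the highest marks is not given here either. Centring moved the split of all calls from 49.2% to 57.5% toward RC77 T/E. No paired analysis was possible because there was 1 library per line. Without depth, values near 0 have no stated precision.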

Other observations

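Genes that act on complement from outside the pathway were read as a further list. IL1B, which encodes a cytokine known to raise C3 and factor B in epithelial cells, was at 179.2 TPM in RC77 T/E against 0.187 TPM in MDA PCa 2b. TNF was at 0.282 and 3.51 TPM, IL6 at 0.0264 and 0.146 TPM, and IFNG, interferon gamma, is listed at 0 in both. Of the transcription factors known to act on complement genes, CEBPB was 3.28 times and CEBPD 2.00 times as high in RC77 T/E, and of this pair CEBPB alone passed 2-fold after 1 TPM was added. IRF1 was at 4.10 and 5.24 TPM, STAT3 at 25.6 and 23.8 TPM and RELA at 24.8 and 21.6 TPM. NFKB1 was higher in MDA PCa 2b, by 1.47 times. The part of these genes in the levels of C3 and CFB was not tested.

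Of 3 proteases that process complement proteins inside or around cells, CTSL, a lysosomal protease that can cleave C3, was at 51.4 and 63.0 TPM. For FURIN, which splits the C3 precursor into its chains, MDA PCa 2b had 2.62 times the level, and CTSB, another lysosomal protease, 4.85 times as high in RC77 T/E.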
